A study of Homo sapiens with 14 samples.

Results

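PC3-N(PDGFRα) is a PC3-N prostate cancer line that overexpresses platelet-derived growth factor receptor alpha, the protein of the gene PDGFRA. It was set against unmodified PC3-N across 18372 genes, to ask what differs in cells that carry more of the receptor. The comparison rests on 4 of the 14 arrays of the series, the 2 titled PC3-N(PDGFRα) and the 2 titled PC3-N, which were picked by title and not by any measured value. The series covers 7 human prostate cancer cell lines with 2 arrays each, and the design states that a line's arrays come from 2 passages in culture. PC3-N(PDGFRα) is labelled bone metastatic, and PC3-N, a subline of PC3 with no added receptor, is labelled non-bone metastatic. The culture medium, DMEM with serum and gentamicin, was the same for every line, and no ligand, inhibitor or host animal is named for any of them. How the receptor was introduced, under which promoter, and whether the line is a clone or a pool are not given in the sources used here. No PC3-N line that went through the same handling without the receptor was analysed here, so the receptor and the derivation of the line cannot be told apart. PC3-ML, its progeny Clone 1 and Clone 3, DU-145 (PDGFRα) and DU-145 supply part of the estimate of spread and, where named, a second comparison.

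PDGFRα is a receptor tyrosine kinase of the cell surface. Binding of platelet-derived growth factors pairs its chains, which phosphorylate each other and recruit adaptors that feed the RAS-MAPK, PI3K-AKT and phospholipase C pathways; feedback inhibitors such as the Sprouty proteins are induced by these pathways and damp them. Interleukin-1 beta, a secreted inflammatory cytokine, acts through its own receptor on NF-kB, a transcription factor that induces CXC chemokines, which attract neutrophils, and its own inhibitor IκBα. PC3 cells derive from a bone metastasis of a prostate adenocarcinoma and DU-145 cells from a brain metastasis.

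Values are intensities of single-colour Affymetrix gene arrays after RMA by the authors, on a linear scale, and each change is the difference of log2 intensities, PC3-N(PDGFRα) minus PC3-N. With 2 arrays in each line, the spread was shared over all 7 lines in limma. A gene was called at a Benjamini-Hochberg adjusted p under 0.05 over all genes. Each p therefore refers to the spread between passages, and not between separately derived lines. Intensities under 30 lie near the floor of these arrays, where differences are compressed. In all, 34.4% of the genes were under 30 on all 4 arrays. As arrays measure RNA from whole cultures, fewer cells of a type and less RNA per cell cannot be told apart.

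Across genes the 2 PC3-N(PDGFRα) arrays correlated at r = 0.9949 and the 2 PC3-N arrays at 0.9925, and arrays of the 2 lines at 0.9849 to 0.9899, as a description over genes that are not independent. The second PC3-N array had a higher r with the second PC3-ML array (0.9935) than with the other PC3-N passage. The 2 PC3-N passages were less alike in the largest falls than in the largest rises. PC3-N replicate 1 was above replicate 2 in 22 of the 25 largest falls, by more than 1.5 times in 8 of them, against 11 and 0 of the 25 largest rises and 49.1% of all genes. In 3 of those falls and 2 of those rises PC3-N(PDGFRα) replicate 1 exceeded its replicate 2 by more than 1.5 times. The part of these passage differences in the results was not tested. Results below name the arrays without which a call was lost.

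The receptor gene itself checks the label. PDGFRA read 817 and 850.4 on the PC3-N(PDGFRα) arrays, against 103 and 109 on the PC3-N arrays. Both arrays of the overexpressing line lay far above both parental arrays, with little spread in either line. The rise was 7.84-fold (log2 change 2.97, SE 0.19, limma adjusted p = 8.02e-05), and it was called without each of the 4 arrays in turn. PC3-N itself carried PDGFRA signal above the floor. The 2 measured genes of the PC3 background list were not called and low in both lines: CTNNA1, the alpha-catenin gene deleted in PC3, and KLK3, the androgen-driven PSA gene, were under 30 on all 4 arrays (limma; 0 at an unadjusted p under 0.05, median change −0.021).

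Of the 18372 genes, 405 (2.2%) were called, 280 higher (1.52% of all genes) and 125 lower (0.68%) in PC3-N(PDGFRα). The median change was 0.53 among the genes called higher and 0.58 in size among those called lower, so most calls are small: 26 rises and 18 falls reached 2-fold (0.239% of all genes together). In each of the 405 the arrays of the 2 lines were apart, as they were in 21.9% of all genes above and 22.1% below. Just inside the threshold lay WASHC4 (adjusted p = 0.0498) and just outside CCDC69 (0.0508). The call held without each of the 4 arrays for 38 higher and 14 lower genes (0.283% of all genes). The whole count dropped to 71 without PC3-N(PDGFRα) replicate 1, to 158 without PC3-N(PDGFRα) replicate 2 and to 118 without PC3-N replicate 1. Without PC3-N replicate 2 the total hardly changed, but part of the called genes were different ones and the share of falls was larger. The plot of change against intensity shows IL1B and PDGFRA standing above all other rises.

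**Figure D1:**
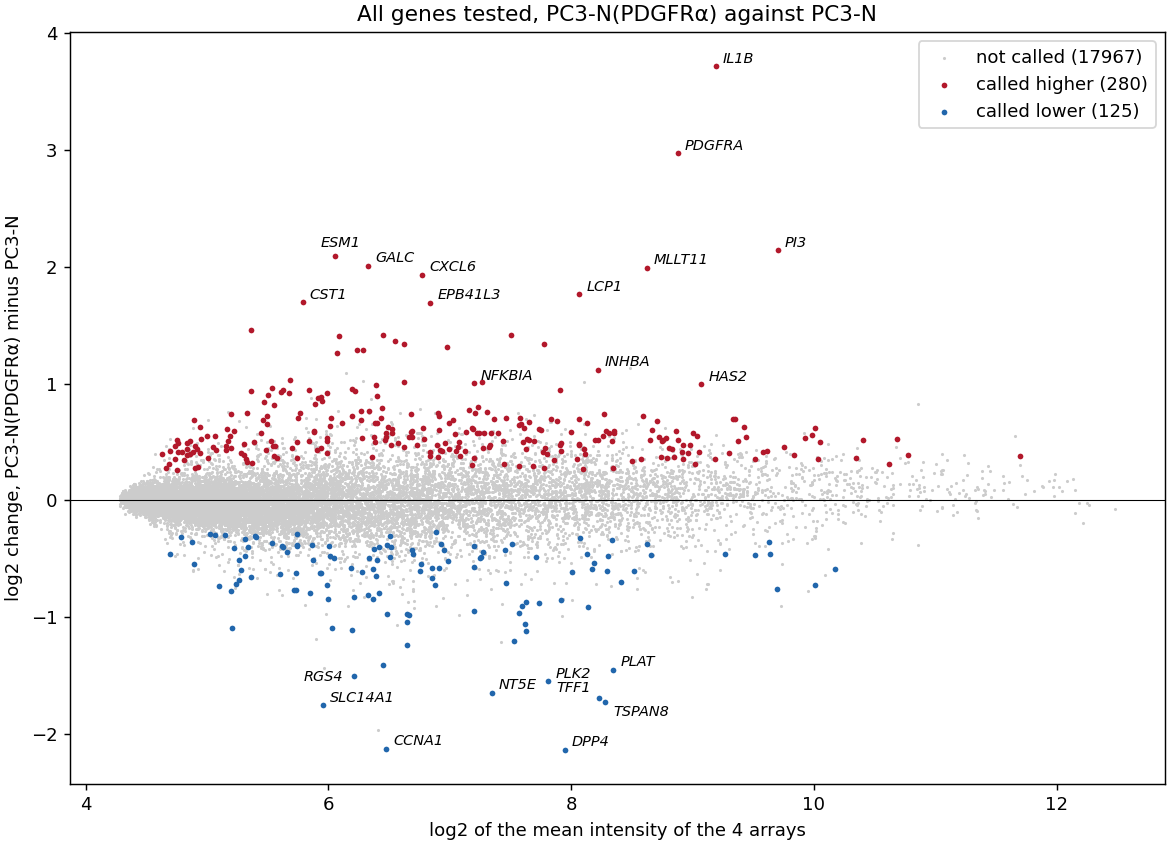
Each point is 1 gene, with the log2 of its mean intensity over the 4 arrays on the x axis and its log2 change, PC3-N(PDGFRα) minus PC3-N, on the y axis; genes called higher (280) are red and genes called lower (125) blue. IL1B at 3.72 and PDGFRA at 2.97 lie highest, and DPP4 at −2.13 and CCNA1 at −2.12 lowest among called genes.

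IL1B, the gene of interleukin-1 beta, rose more than the introduced receptor did. It read 1103 and 1066 in PC3-N(PDGFRα), against 71.4 and 95.5 in PC3-N. Neither PC3-N array came near the overexpressing line, and the 2 PC3-N(PDGFRα) arrays differed little. The rise was 13.1-fold (change of 3.72 in log2, SE 0.14, adjusted p = 2.63e-06). Of the 20 measured members of the interleukin-1 family and its receptors, 3 were called higher and 0 lower (limma; 5 at an unadjusted p under 0.05, which 13.7% of all genes reached). The median change over the 20 was 0.009, against −0.004 over all genes. Counts in this and the later lists stand beside shares of 1.52% called higher and 0.68% called lower among all genes. Their unadjusted counts stand beside the 13.7%.

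The other 2 members called higher were much dimmer. IL37, an anti-inflammatory member of the family that lies beside IL1B in the genome, read 126 and 66.7 in PC3-N(PDGFRα), against 37.7 and 38.8 in PC3-N (change of 1.26 in log2, SE 0.23, adjusted p = 0.0254). The first overexpressing array was far above the second, and both exceeded the parental ones. IL1RL1, the receptor of interleukin-33, read 39.4 and 43.3, against 29.96 and 29.9 in PC3-N (log2 change 0.46, adjusted p = 0.0205). IL37 lost its call without PC3-N(PDGFRα) replicate 1 or either PC3-N array (adjusted p up to 0.126), and IL1RL1 without any 1 of the 4 arrays (up to 0.128). IL1A, the sister cytokine of IL1B, stayed near the floor, at 27.3 and 26.3 in PC3-N(PDGFRα) and 24.1 and 23.8 in PC3-N (adjusted p = 0.147). IL1RAP, the co-receptor of interleukin-1, differed by 0.17 (adjusted p = 0.734).

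Among 17 measured inflammasome and interleukin-1 signalling genes, 1 was called higher and 0 lower, with a median change of 0.087. It was CASP4, an inflammatory caspase that senses bacterial lipopolysaccharide inside cells, at 156 and 165 in PC3-N(PDGFRα) against 97.3 and 102 in PC3-N (change of 0.69 in log2, SE 0.09, adjusted p = 0.00615). Its arrays were tight and did not overlap, and the call held without each array. MAP3K7, the kinase TAK1 downstream of the interleukin-1 receptor, differed by 0.21 (adjusted p = 0.315), and TOLLIP, an inhibitor of that receptor's signal, by −0.29 (adjusted p = 0.256).

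Chemokine genes followed among the rises. Of 26 measured chemokines and inflammatory cytokines, 4 were called higher and 0 lower (1.52% and 0.68% of all genes), with a median change of 0.062. All 4 are neutrophil-attracting CXC chemokines of 1 gene cluster on chromosome 4. CXCL6 read 172 and 175 in PC3-N(PDGFRα), against 45.9 and 45.0 in PC3-N (change of 1.93 in log2, SE 0.12, adjusted p = 8.02e-05). CXCL2 read 133 and 122, against 47.5 and 47.9 in PC3-N (change of 1.42 in log2, SE 0.28, adjusted p = 0.0332). In both genes the arrays of a line nearly coincided.

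CXCL8, the gene of interleukin-8, read 319 and 307 in PC3-N(PDGFRα), against 106 and 145 in PC3-N (change of 1.34 in log2, SE 0.27, adjusted p = 0.0381). CXCL1 read 339 and 292, against 149 and 179 in PC3-N (change of 0.95 in log2, SE 0.17, adjusted p = 0.0239). No array of one line reached the other line's range in either gene, though the PC3-N arrays were less alike. CXCL6 kept its call without each array. CXCL8 and CXCL1 lost theirs without PC3-N replicate 1 or either PC3-N(PDGFRα) array (adjusted p up to 0.208 and 0.173), and CXCL2 without any 1 of the 4 (up to 0.199). With 16 added to each intensity before log2, CXCL2 and CXCL8 were not called. CXCL5, a further chemokine of this cluster, differed by 0.40 (adjusted p = 0.0664), and CXCL3 by 0.16 (adjusted p = 0.599). Both stayed under 60 on all 4 arrays.

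Of 20 measured NF-kB subunits and feedback inhibitors, 1 was called higher and 0 lower, with a median change of 0.031. NFKBIA, which encodes the inhibitor IκBα and is itself an NF-kB target, read 207 and 184 in PC3-N(PDGFRα), against 88.9 and 107 in PC3-N. The lines did not overlap, and the rise (change of 1.00 in log2, SE 0.12, adjusted p = 0.00343) held without each array. The subunit genes were not called: REL differed by 0.50 (adjusted p = 0.155) and RELA by −0.37 (adjusted p = 0.166).

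The proximal promoters of these genes are shown because 5 of the genes called higher here share 1 short word in them. The letters searched were GGAATTTCC, a form of the NF-kB binding motif, on both strands (GGAAATTCC on the other strand) within 250 bases upstream of the RefSeq start (GRCh38.p14). Each line gives the 130 bases before the start, 5′ to 3′ on the gene's own strand, with the matched letters in capitals. CXCL6 lies at chr4:73836548-73836677, plus strand, CXCL1 at chr4:73869263-73869392, plus strand, CXCL2 at chr4:74099196-74099325, minus strand, CXCL8 at chr4:73740439-73740568, plus strand, NFKBIA at chr14:35404750-35404879, minus strand, and IL1B at chr2:112836780-112836909, minus strand.
CXCL6: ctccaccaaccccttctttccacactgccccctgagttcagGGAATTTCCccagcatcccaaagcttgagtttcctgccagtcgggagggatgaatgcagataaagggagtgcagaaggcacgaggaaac
CXCL1: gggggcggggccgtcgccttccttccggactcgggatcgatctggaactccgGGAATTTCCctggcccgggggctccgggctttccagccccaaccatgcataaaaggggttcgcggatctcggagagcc
CXCL2: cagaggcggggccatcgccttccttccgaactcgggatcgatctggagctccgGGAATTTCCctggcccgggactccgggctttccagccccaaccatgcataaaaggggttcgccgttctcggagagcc
CXCL8: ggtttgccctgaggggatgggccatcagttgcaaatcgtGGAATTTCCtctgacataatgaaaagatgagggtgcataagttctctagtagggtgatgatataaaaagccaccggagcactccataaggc
NFKBIA: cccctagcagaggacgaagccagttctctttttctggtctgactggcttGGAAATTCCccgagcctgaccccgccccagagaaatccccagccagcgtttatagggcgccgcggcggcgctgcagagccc
IL1B: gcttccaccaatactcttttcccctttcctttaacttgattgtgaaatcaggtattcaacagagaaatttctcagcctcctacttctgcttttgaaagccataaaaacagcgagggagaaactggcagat

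The word began 77 to 91 bases before the start in the 5 genes that hold it, and the window of IL1B, the largest rise, did not hold these letters. Among all RefSeq promoters listed, 145 of 35116 (0.413%) held the word. It was found in 7 of the 236 genes called higher that have an entry (2.97%), which added PTPN2 and THG1L. It was in 0 of 102 called lower and in 64 of 13869 genes not called (0.461%). PTPN2 lost its call without replicate 1 of either line. THG1L lost its call without any 1 of the 4 arrays and with quantile normalization. Of the 7, CXCL1, CXCL2, CXCL6 and CXCL8 belong to the same gene cluster, and the printed stretches of CXCL1 and CXCL2 are nearly alike. Their matches are therefore not separate, and the shares were not tested. The match did not sort chemokines by their change. CXCL3 and CXCL5, not called, hold the same letters, as do CXCL10 and CXCL11, which stayed under 23 on all 4 arrays. In the NF-kB list NFKB1, REL, NFKBIB and NFKBIZ, not called, hold them besides NFKBIA (5 of 17 genes with an entry). A match describes letters only and is not a binding site.

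**Figure D2:**
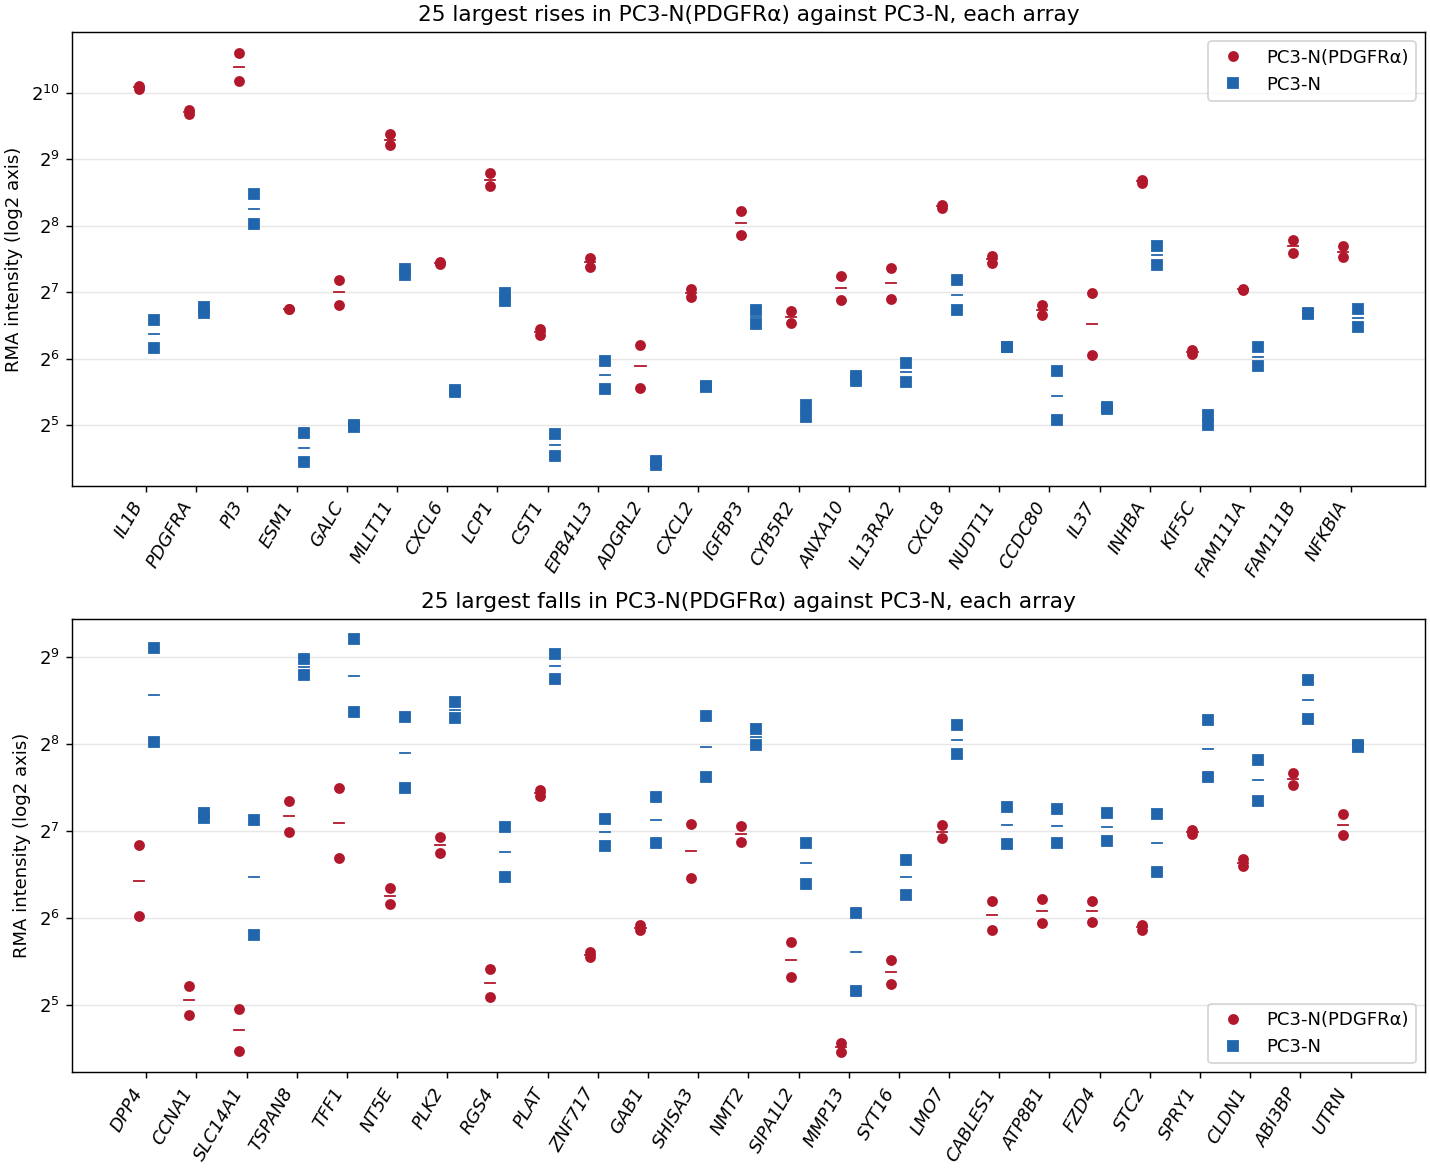
Points are single-array RMA intensities on a log2 axis for the 25 largest rises (top) and 25 largest falls (bottom) under the naming rule, with PC3-N(PDGFRα) in red left of PC3-N in blue; dashes are the mean of the log2 values of 2 arrays. The PC3-N arrays of DPP4, SLC14A1, TFF1 and NT5E lie far apart, while those of PDGFRA, CXCL6 and CCNA1 nearly coincide.

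Among the genes of secreted protease inhibitors named here, PI3, SLPI, CST1 and CST2 were called higher and TIMP3 lower. PI3, which encodes the elastase inhibitor elafin, read 1551 and 1161 in PC3-N(PDGFRα), against 260.0 and 356 in PC3-N. Even the lower overexpressing array was more than 3 times the higher parental one. The change was 4.41-fold (change of 2.14 in log2, SE 0.21, adjusted p = 0.00131) and held without each array. SLPI, a related inhibitor of neutrophil elastase, read 123 and 100.2, against 61.8 and 50.5 in PC3-N (change of 0.99 in log2, SE 0.15, adjusted p = 0.0103), with no overlap; it lost its call without PC3-N(PDGFRα) replicate 1 (adjusted p = 0.0969). Of the 20 measured antiprotease and epithelial defence genes these 2 were called higher and 1 lower, with a median change of −0.015.

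The gene called lower was TFF1, a trefoil peptide of mucosal surfaces, at 181 and 103 in PC3-N(PDGFRα) and 589 and 329.7 in PC3-N (change of −1.69 in log2, SE 0.32, adjusted p = 0.0310). Its arrays did not overlap, but both lines had wide passage differences, and the call was lost without PC3-N replicate 1 or either PC3-N(PDGFRα) array (adjusted p up to 0.169) and with the PC3 lines alone in the fit. TFF2, its neighbour and relative, differed by −0.90 (adjusted p = 0.0630).

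Cystatins inhibit cysteine proteases, and 2 of the 9 measured were called higher and 0 lower, with a median change of 0.059. CST1 read 81.6 and 87.0 in PC3-N(PDGFRα), against 23.2 and 29.1 in PC3-N, where it lay near the floor (change of 1.70 in log2, SE 0.23, adjusted p = 0.00682). CST2 read 69.4 and 58.7, against 32.8 and 34.2 in PC3-N (change of 0.93 in log2, SE 0.12, adjusted p = 0.00615). The 2 lines were well apart in both genes. CST1 and CST2 are close copies, so part of a probe set's signal may belong to the other; CST4, another close copy, differed by 0.33 (adjusted p = 0.280). Without PC3-N(PDGFRα) replicate 1 neither was called, and CST1 also not without PC3-N replicate 1 (adjusted p up to 0.0563 for each).

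Genes of proteolysis at the cell surface and in the matrix were mostly not called. In plasminogen activation 0 of 9 measured genes were called higher and 1 lower: PLAT, which encodes tissue plasminogen activator, at 177 and 169.6 in PC3-N(PDGFRα) and 523 and 430.4 in PC3-N (change of −1.45 in log2, SE 0.18, adjusted p = 0.00444). Its arrays were far apart between lines, and it was called without each array. The list's median change was 0.018. PLAU, the gene of urokinase, differed by 0.67 in the other direction (adjusted p = 0.122). Of 22 matrix metalloproteinases and inhibitors, 0 were called higher and 2 lower, with a median change of −0.016.

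TIMP3, a matrix-bound inhibitor of metalloproteinases, read 27.2 and 26.7 in PC3-N(PDGFRα), against 45.8 and 46.8 in PC3-N (change of −0.78 in log2, SE 0.09, adjusted p = 0.00399), with the overexpressing line near the floor. Its second, dimmer probe set differed by −0.22 (adjusted p = 0.238). MMP13, a collagenase of cartilage and bone, read 22.0 and 23.6, against 66.3 and 35.8 in PC3-N (change of −1.09 in log2, SE 0.24, adjusted p = 0.0480). The PC3-N arrays of MMP13 differed from each other nearly as much as the lines did. It was lost without PC3-N replicate 1 or either PC3-N(PDGFRα) array (adjusted p up to 0.243), with 16 added, with quantile normalization, with the PC3 lines alone and with robust moderation. MMP1, the interstitial collagenase, differed by −1.19 (adjusted p = 0.238).

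Several surface proteins fell. DPP4, a dipeptidyl peptidase also known as CD26, had the largest fall, to 114 and 64.8 in PC3-N(PDGFRα), against 549 and 259 in PC3-N. The lines did not overlap, but the first PC3-N array was more than 2 times the second. The change was −2.13 (SE 0.33, adjusted p = 0.0135), and the call was lost without PC3-N replicate 1 or PC3-N(PDGFRα) replicate 2 (adjusted p up to 0.0822). NT5E, which encodes the ecto-5′-nucleotidase CD73 that makes adenosine, fell to 81.0 and 71.7, against 317 and 179.9 in PC3-N (change of −1.65 in log2, SE 0.25, adjusted p = 0.0112), and lost its call without either PC3-N(PDGFRα) array (adjusted p up to 0.0723).

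Of the 17 measured ectopeptidases and ectonucleotidases these 2 were called lower and 1 higher, with a median change of 0.004. The higher one was MME, which encodes neprilysin, at 33.4 and 34.3 in PC3-N(PDGFRα) against 25.9 and 24.8 in PC3-N (change of 0.42 in log2, SE 0.06, adjusted p = 0.0102). All 4 of its values lay close to the floor, and it lost its call without either PC3-N(PDGFRα) array (adjusted p up to 0.0641). TSPAN8, a tetraspanin of epithelial and tumour cell membranes, read 163 and 127, against 505 and 445 in PC3-N (change of −1.72 in log2, SE 0.15, adjusted p = 0.000864). Its fall held without each array. It was the 1 call among 26 measured tetraspanins, of which 0 were higher, with a median change of −0.052.

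Integrins, the receptors of matrix proteins, gave 1 higher and 1 lower call among 24 measured (1.52% and 0.68% of all genes), with a median change of 0.008. ITGB3, the beta-3 chain that pairs with alpha-V and binds vitronectin and osteopontin, read 40.8 and 35.1 in PC3-N(PDGFRα), against 24.0 and 27.8 in PC3-N (change of 0.55 in log2, SE 0.09, adjusted p = 0.0123). Its partner ITGAV differed by 0.41 (adjusted p = 0.132). ITGB5, another beta chain of alpha-V, read 34.0 and 36.0, against 48.3 and 43.8 in PC3-N (log2 change −0.40, adjusted p = 0.0188). Both beta chains were dim, and their arrays did not overlap between lines. ITGB3 was lost without replicate 1 of either line (adjusted p up to 0.101) and ITGB5 also without PC3-N(PDGFRα) replicate 2 (up to 0.148).

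Genes of the actin and membrane skeleton moved both ways: 2 of 21 measured were called higher and 2 lower, with a median change of −0.043. LCP1, the actin bundler L-plastin, read 445 and 385 in PC3-N(PDGFRα), against 117 and 127 in PC3-N (change of 1.76 in log2, SE 0.13, adjusted p = 0.000220). EPB41L3, a band 4.1 protein that links membrane proteins to spectrin and actin, read 183 and 165, against 46.5 and 62.6 in PC3-N (change of 1.69 in log2, SE 0.13, adjusted p = 0.000220). Both rises were far larger than the spread between passages and held without each array.

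EPB41L2, of the same band 4.1 family, fell to 219 and 241 in PC3-N(PDGFRα), against 333 and 359.9 in PC3-N (log2 change −0.59, adjusted p = 0.00678). SPTBN1, a beta-spectrin, fell to 339.5 and 341, against 474 and 465 in PC3-N (−0.46, adjusted p = 0.00678). Both lost their calls without PC3-N(PDGFRα) replicate 1 (adjusted p = 0.0643 and 0.0563). UTRN, the dystrophin relative utrophin, fell to 146 and 124, against 249.9 and 254 in PC3-N (change of −0.90 in log2, SE 0.13, adjusted p = 0.0103), a call lost without PC3-N replicate 1 or PC3-N(PDGFRα) replicate 2 (up to 0.0692).

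PDGF ligands and receptors and the signalling genes downstream of PDGFRα follow by list. Of the 7 PDGF ligands and receptors PDGFRA was the 1 call, higher, with a median change of 0.045. PDGFC, the one ligand of this list clearly above the floor, read 106 and 122 in PC3-N(PDGFRα) and 122 and 99.0 in PC3-N, which overlap (adjusted p = 0.939). PDGFA, PDGFB and PDGFD stayed between 25.1 and 33.9. Among 21 adaptors and effectors 1 was called higher and 1 lower, with a median change of −0.001.

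GAB1, a docking adaptor of receptor tyrosine kinases, fell to 60.2 and 57.9 in PC3-N(PDGFRα), against 167 and 116 in PC3-N (change of −1.24 in log2, SE 0.22, adjusted p = 0.0206). Its second probe set differed by 0.03 (adjusted p = 0.947), so the fall rests on 1 of 2 probe sets. It was lost without PC3-N replicate 1 or either PC3-N(PDGFRα) array (up to 0.124). YES1, a SRC-family kinase, rose to 707 and 728, against 559.7 and 524 in PC3-N (log2 change 0.41, adjusted p = 0.0194), and was lost without any 1 of the 4 arrays (up to 0.111).

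Among 22 feedback regulators and output genes of the MAPK pathway 0 were called higher and 2 lower, and the median change was −0.144, with the arrays of PC3-N(PDGFRα) wholly below those of PC3-N in 11 genes and wholly above in 3 (among all genes 22.1% lay below and 21.9% above). Such a lean was not particular to this list. Of 25 ATF4 and unfolded protein response genes 11 lay wholly below and 1 above. Of 29 mitotic genes 13 lay wholly above and 2 below. These counts were not tested. SPRY1, a Sprouty inhibitor that the pathway induces, fell to 129 and 125 in PC3-N(PDGFRα), against 309 and 197 in PC3-N (change of −0.96 in log2, SE 0.18, adjusted p = 0.0282). CCND1, which encodes cyclin D1, fell to 198 and 208, against 295 and 327 in PC3-N (change of −0.62 in log2, SE 0.13, adjusted p = 0.0379). SPRY4 differed by −0.83 (adjusted p = 0.121) and SPRED2, another inhibitor of the pathway, by −0.63 (adjusted p = 0.0770).

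SPRY1 lost its call without PC3-N replicate 1 or either PC3-N(PDGFRα) array (up to 0.150) and CCND1 without any 1 of the 4 arrays (up to 0.219). Of 25 immediate early genes 0 were called higher and 1 lower, with a median change of −0.1. PLK2, a polo-like kinase that growth factors induce, fell to 122 and 107, against 356 and 314 in PC3-N (change of −1.55 in log2, SE 0.10, adjusted p = 8.02e-05), and kept its call without each array. MYC differed by −0.29 (adjusted p = 0.141).

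RGS proteins shorten signalling by G proteins, and RGS4 was the 1 called gene of 17 measured, of which 0 were higher; the median change was −0.041. RGS4 fell to 42.7 and 34.1 in PC3-N(PDGFRα), against 132 and 88.6 in PC3-N (change of −1.50 in log2, SE 0.17, adjusted p = 0.00264), and held without each array. Of the 21 measured cyclins and CDK inhibitors CCNA1 and CCND1 were called lower and 0 higher, with a median of 0.062. CCNA1, which encodes the cyclin A1 of germ cells and some tumours, fell to 37.2 and 29.5, against 141 and 148 in PC3-N (change of −2.12 in log2, SE 0.14, adjusted p = 8.02e-05), close to the floor. It was called without each array.

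The mitotic and DNA replication lists gave 1 call between them. Of 29 mitotic genes 1 was called higher and 0 lower (1.52% and 0.68% of all genes), with a median change of 0.116. By limma 9 of the 29 reached an unadjusted p under 0.05, against 13.7% of all genes. AURKA, a kinase of the spindle pole, read 318 and 313 in PC3-N(PDGFRα), against 236 and 242 in PC3-N (change of 0.40 in log2, SE 0.05, adjusted p = 0.00553), and lost its call without PC3-N(PDGFRα) replicate 1 (adjusted p = 0.0521). None of 30 DNA replication genes was called by limma, 8 of them at an unadjusted p under 0.05 (which 13.7% of all genes reached), with a median of −0.011.

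Growth factors with a role in vessels gave 2 higher calls and 0 lower among 14 measured, with a median of −0.022. ESM1, the secreted proteoglycan endocan, read 108 and 107 in PC3-N(PDGFRα), against 21.7 and 29.4 in PC3-N (change of 2.09 in log2, SE 0.13, adjusted p = 8.02e-05). The PC3-N arrays lay near the floor, so the fold is a low estimate, and the call held without each array. VEGFC, a ligand of lymphatic vessel growth, read 539 and 466, against 329 and 361 in PC3-N (log2 change 0.54, adjusted p = 0.0188), and was lost without replicate 1 of either line (up to 0.143). None of the 14 EGF receptor family genes was called by limma, with 1 at an unadjusted p under 0.05 and a median of 0.007.

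In the TGF-beta list 1 of 28 measured genes was called higher and 3 lower, with a median of −0.033. INHBA, which encodes the beta-A chain of activin, read 399 and 414 in PC3-N(PDGFRα), against 207 and 169.7 in PC3-N (change of 1.12 in log2, SE 0.09, adjusted p = 0.000303), and held without each array. FST, which encodes follistatin, the binding protein that neutralises activin, fell to 673 and 553, against 1171 and 911 in PC3-N (change of −0.76 in log2, SE 0.12, adjusted p = 0.0165). The ligand gene and the inhibitor gene thus moved in opposite directions, each without overlap.

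FST was lost without PC3-N replicate 1 or PC3-N(PDGFRα) replicate 2 (up to 0.104). TGFBR3, the co-receptor betaglycan, fell to 29.7 and 32.3 in PC3-N(PDGFRα), against 50.2 and 43.5 in PC3-N (log2 change −0.59, adjusted p = 0.0368), and LTBP1, a latent TGF-beta binding protein, to 247 and 225, against 316 and 334 in PC3-N (−0.46, adjusted p = 0.0393). TGFBR3 was lost without PC3-N replicate 1 or either PC3-N(PDGFRα) array and with the PC3 lines alone. LTBP1 was lost without any 1 array, with the PC3 lines alone and with trended moderation.

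Among 30 lysosomal genes 2 were called higher and 0 lower, with a median of −0.016. GALC, the enzyme that breaks down galactosylceramide, read 145 and 112 in PC3-N(PDGFRα), against 32.1 and 31.3 in PC3-N (change of 2.01 in log2, SE 0.12, adjusted p = 8.02e-05), and held without each array. CD68, a lysosomal membrane protein abundant in macrophages, read 159 and 154, against 94.6 and 103 in PC3-N (change of 0.66 in log2, SE 0.11, adjusted p = 0.0183), and was lost without PC3-N replicate 1 or either PC3-N(PDGFRα) array (up to 0.130). Of 22 solute carriers 2 were called higher and 1 lower, with a median of −0.022.

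SLC14A1, a urea transporter, fell to 30.9 and 22.1 in PC3-N(PDGFRα), against 139 and 55.9 in PC3-N (change of −1.76 in log2, SE 0.35, adjusted p = 0.0349). The first PC3-N array was more than 2 times the second, and the call was lost without PC3-N replicate 1 or either PC3-N(PDGFRα) array (up to 0.181). SLC1A3, a glutamate transporter, rose to 69.2 and 64.1, against 39.2 and 31.5 in PC3-N (0.92, adjusted p = 0.0381), and SLC20A1, a phosphate transporter, to 539 and 469, against 372 and 336 in PC3-N (0.51, adjusted p = 0.0180). SLC1A3 was lost without any 1 array and with the PC3 lines alone. SLC20A1 was lost without PC3-N replicate 2 or PC3-N(PDGFRα) replicate 1.

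Bone-related, stress and metabolic lists held no limma call. In the list of osteomimicry and osteoclast-regulating genes 0 of 21 were called, 5 at an unadjusted p under 0.05 (which 13.7% of all genes reached), with a median of −0.027. GJA1, the gap junction protein connexin 43, had the largest difference there, 0.56 (adjusted p = 0.0830), and DKK1, a WNT inhibitor, differed by −0.25 (adjusted p = 0.195). None of 25 ATF4 and unfolded protein response genes was called (7 unadjusted, median −0.159), nor of 27 glycolysis and hypoxia genes (5, −0.115), 20 sterol genes (3, −0.079) or 29 interferon-stimulated genes (6, 0.059). SLC7A11, a cystine transporter, read 118 and 76.2 in PC3-N(PDGFRα), against 358 and 134 in PC3-N, whose 2 arrays lay far apart (log2 difference −1.21, adjusted p = 0.146).

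**Figure D3:**
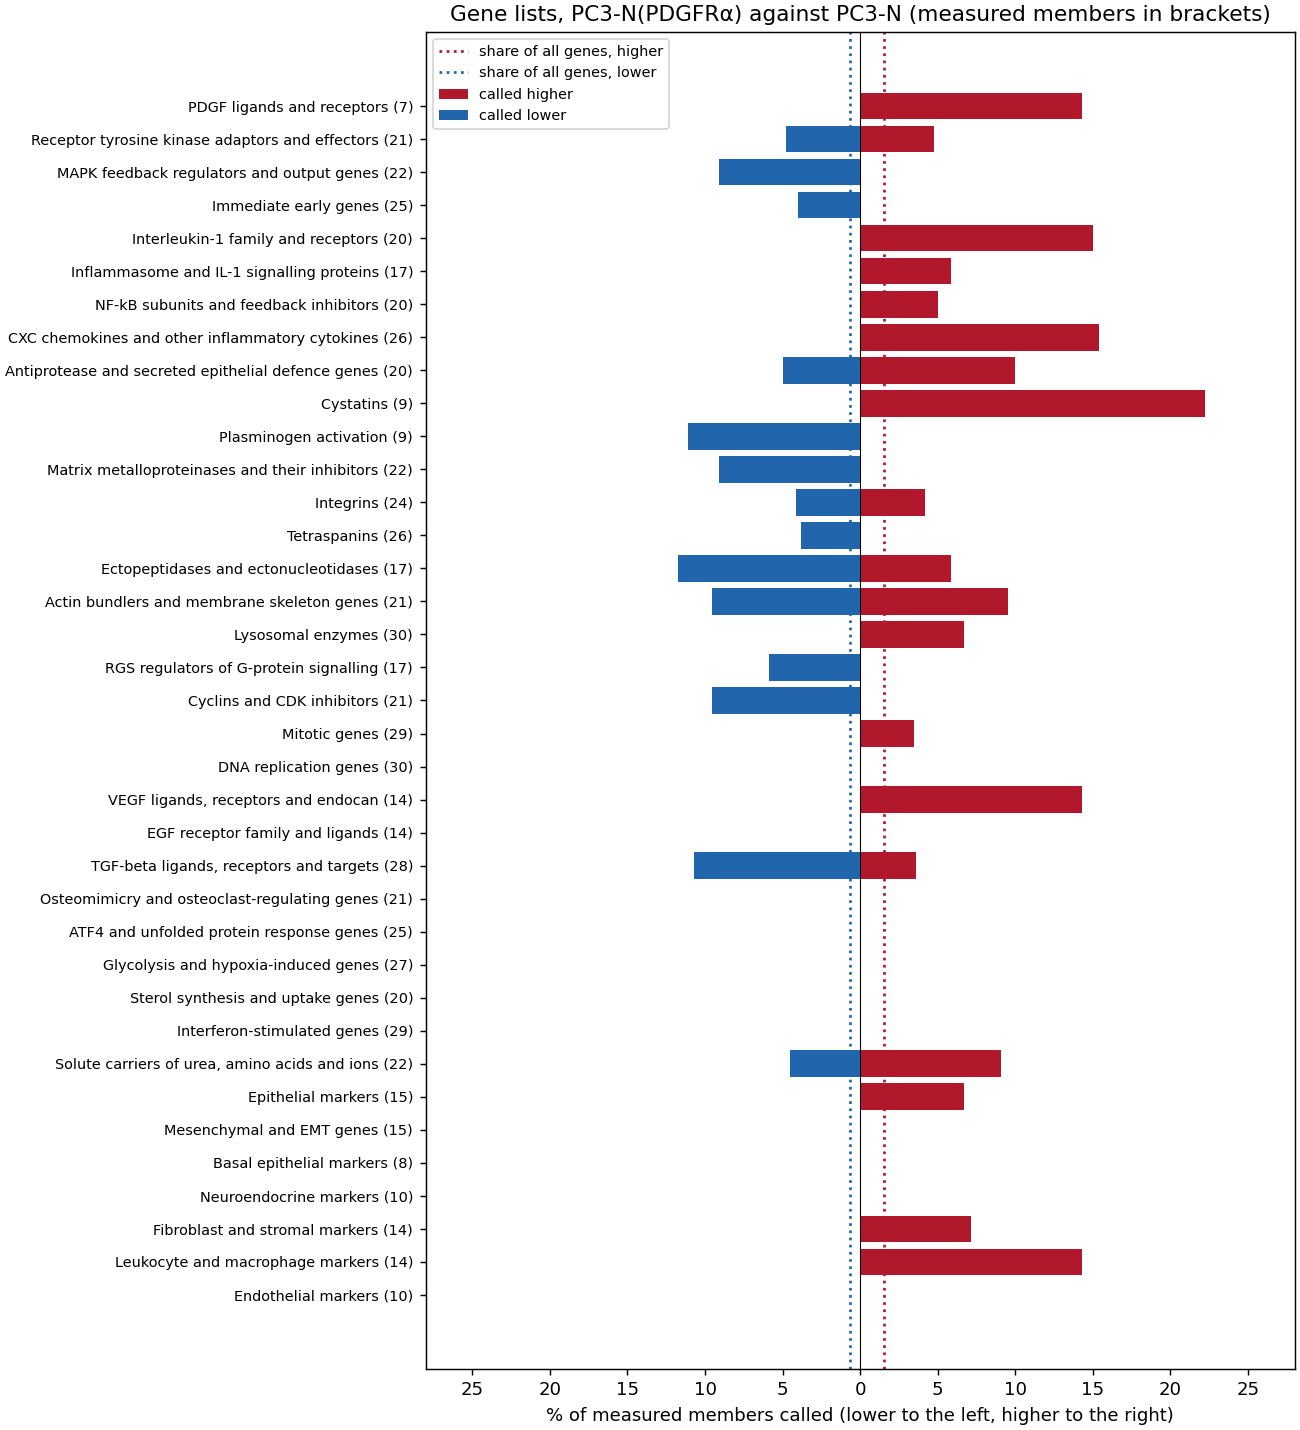
Bars give the percent of measured members called higher (red, to the right) and lower (blue, to the left) in PC3-N(PDGFRα) against PC3-N for the lists with at least 7 measured genes, whose number is in brackets; dotted lines mark the shares among all genes, 1.52% higher and 0.68% lower. Cystatins reach furthest to the right with 2 of 9 called higher, ahead of the CXC chemokine list with 4 of 26 and the interleukin-1 list with 3 of 20.

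Markers of lineage follow by list. Of 15 measured epithelial markers 4 were under 30 on all 4 arrays, the median change was −0.151, and the summed intensity was 2094 to 2293 in PC3-N(PDGFRα) and 2189 to 2483 in PC3-N. DSP, the desmosome protein desmoplakin, was the 1 call, at 163 and 153 in PC3-N(PDGFRα) against 116 and 107 in PC3-N (change of 0.50 in log2, SE 0.10, adjusted p = 0.0338), lost without any 1 array (up to 0.216). Keratins of simple epithelium were not called: KRT8 differed by −0.58 (adjusted p = 0.117) and KRT18 by −0.87 (adjusted p = 0.433). The second, dimmer KRT18 probe set differed by −0.35 (limma adjusted p = 0.261).

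By limma 0 of 15 mesenchymal (3 at an unadjusted p under 0.05), 0 of 8 basal (1), 0 of 10 neuroendocrine (2) and 0 of 10 endothelial genes (2) were called. FN1, fibronectin, differed by −0.84 (adjusted p = 0.118), and S100A4, a gene of motile cells, by −0.90 (adjusted p = 0.0660). Medians were −0.081, 0.009, −0.034 and 0.038. Of 14 fibroblast markers 7 were under 30 on all arrays, among them DCN, LUM and POSTN, with a median change of 0.010 and sums of 487 to 518 in PC3-N(PDGFRα) and 420 to 456 in PC3-N. The 1 called was PDPN, podoplanin, at 75.8 and 85.6 against 48.9 and 50.1 in PC3-N (change of 0.70 in log2, SE 0.12, adjusted p = 0.0221), lost without any 1 array (up to 0.131).

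Of 14 leukocyte markers 10 were under 30 on all 4 arrays, including the defining PTPRC, CD3D, MS4A1, CD14 and ITGAM, and the median change was 0.016. Their sum was 836 to 898 in PC3-N(PDGFRα) and 524 to 536 in PC3-N, with LCP1 and CD68, described above, as the members called higher. Endothelial sums were 377 to 458 in PC3-N(PDGFRα) and 401 to 475 in PC3-N, with 6 of 10 markers under 30.

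Large changes also fell outside the lists. MLLT11, a small protein first known as a leukaemia fusion partner, read 667 and 592 in PC3-N(PDGFRα), against 163 and 154 in PC3-N (change of 1.99 in log2, SE 0.23, adjusted p = 0.00303). ADGRL2, an adhesion G-protein-coupled receptor, read 74.0 and 47.2, against 21.9 and 21.1 in PC3-N (change of 1.46 in log2, SE 0.16, adjusted p = 0.00264). ADGRL2 was at the floor in PC3-N, so its fold is a low estimate. IGFBP3, the main carrier of insulin-like growth factors, rose to 232 and 297, against 91.7 and 106 in PC3-N (change of 1.41 in log2, SE 0.20, adjusted p = 0.00959), and was lost without PC3-N replicate 1 or PC3-N(PDGFRα) replicate 2 (up to 0.0710).

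Rises of 1.41 in CYB5R2, a cytochrome b5 reductase, 1.36 in ANXA10, an annexin, 1.32 in NUDT11, a phosphohydrolase of inositol polyphosphates, and 1.03 in KIF5C, a kinesin motor, held without each array (adjusted p = 0.00113, 0.00131, 0.00245 and 0.00245), as did MLLT11 and ADGRL2. IL13RA2, the decoy receptor of interleukin-13, rose by 1.34 (adjusted p = 0.0121), and CCDC80, a secreted matrix protein, by 1.28 (0.0200). IL13RA2 was lost without replicate 1 of either line (up to 0.105) and CCDC80 without PC3-N replicate 1 or either PC3-N(PDGFRα) array (up to 0.115). FAM111A and FAM111B, neighbouring genes of serine proteases, rose by 1.01 and 1.01 (adjusted p = 0.00678 and 0.00718); FAM111A was lost without PC3-N(PDGFRα) replicate 1 and FAM111B without PC3-N replicate 1 or PC3-N(PDGFRα) replicate 2 (up to 0.0563 and 0.0553).

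Of the falls outside the lists, NMT2, an N-myristoyltransferase, read 133 and 117 in PC3-N(PDGFRα), against 288 and 254 in PC3-N (change of −1.11 in log2, SE 0.13, adjusted p = 0.00303), FZD4, a WNT receptor, fell by 0.97 (0.00682) and CABLES1, a CDK-binding protein, by 1.04 (0.00718). These 3 held without each array. ZNF717, a zinc finger gene, fell by 1.41 (adjusted p = 0.00710), lost without PC3-N(PDGFRα) replicate 1 (0.0600), and ATP8B1, a phospholipid flippase, by 0.98 (0.0117), lost without PC3-N replicate 1 or PC3-N(PDGFRα) replicate 2 (up to 0.0787).

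The following 8 falls were each lost without PC3-N replicate 1 or either PC3-N(PDGFRα) array. CLDN1, the tight junction protein claudin-1, fell to 96.5 and 102 in PC3-N(PDGFRα), against 226 and 163 in PC3-N (log2 change −0.95, adjusted p = 0.0467, up to 0.238 on leaving out an array). STC2, a secreted stanniocalcin, fell by 0.97 (adjusted p = 0.0304, up to 0.178), SHISA3 by 1.2 (0.0338, up to 0.170) and ABI3BP, a matrix protein, by 0.91 (0.0160, up to 0.102). LMO7, a protein of cell junctions, fell by 1.06 (adjusted p = 0.0206, up to 0.132), SIPA1L2 by 1.11 (0.0221, up to 0.131) and SYT16, of the synaptotagmin family, by 1.09 (0.0143, up to 0.0963). SPRY1, given above, is the eighth. In all 8 the higher PC3-N array was replicate 1.

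The levels in the other 5 lines show where the overexpressing line stands in the series. Both PC3-N(PDGFRα) arrays lay above all other 12 arrays in 90 of the 280 genes called higher (32.1%; 2.17% of all genes), and above the other 8 PC3 arrays in 130 (46.4%; 5.08%). Both lay below the other 8 PC3 arrays in 49 of the 125 called lower (39.2%; 3.03%) and below all other 12 in 19 (15.2%; 1.16%). Since the call itself placed these arrays above or below PC3-N, the shares describe and are not tested. In the remaining called genes at least 1 array of another line reached the range of PC3-N(PDGFRα).

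IL1B, PDGFRA and MLLT11 are among the genes above all 12 other arrays. IL1B read 264 and 258 in PC3-ML, 770.1 and 704 in Clone 1 and 561 and 461 in Clone 3, all above the 71.4 and 95.5 of PC3-N, and 32.1 and 28.2 in DU-145 (PDGFRα) against 27.3 and 29.7 in DU-145. MLLT11 read 94.3 to 163 in the 4 other PC3 lines. CXCL6 and PI3 were not highest in PC3-N(PDGFRα). CXCL6 read 250.3 and 209.8 in PC3-ML, 371 and 330.0 in Clone 1 and 375 and 323 in Clone 3. PI3 read 2261 and 2259.6 in Clone 3. Clone 1 and Clone 3, for which no added receptor is labelled, stood at 3.16 and 2.62 in IL1B and at 2.95 and 2.94 in CXCL6 as log2 differences from the same PC3-N arrays. CCNA1 stood out on the low side, with the overexpressing arrays below those of PC3-ML (192 and 208), Clone 1 (46.2 and 55.9) and Clone 3 (66.8 and 61.8).

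**Figure D4:**
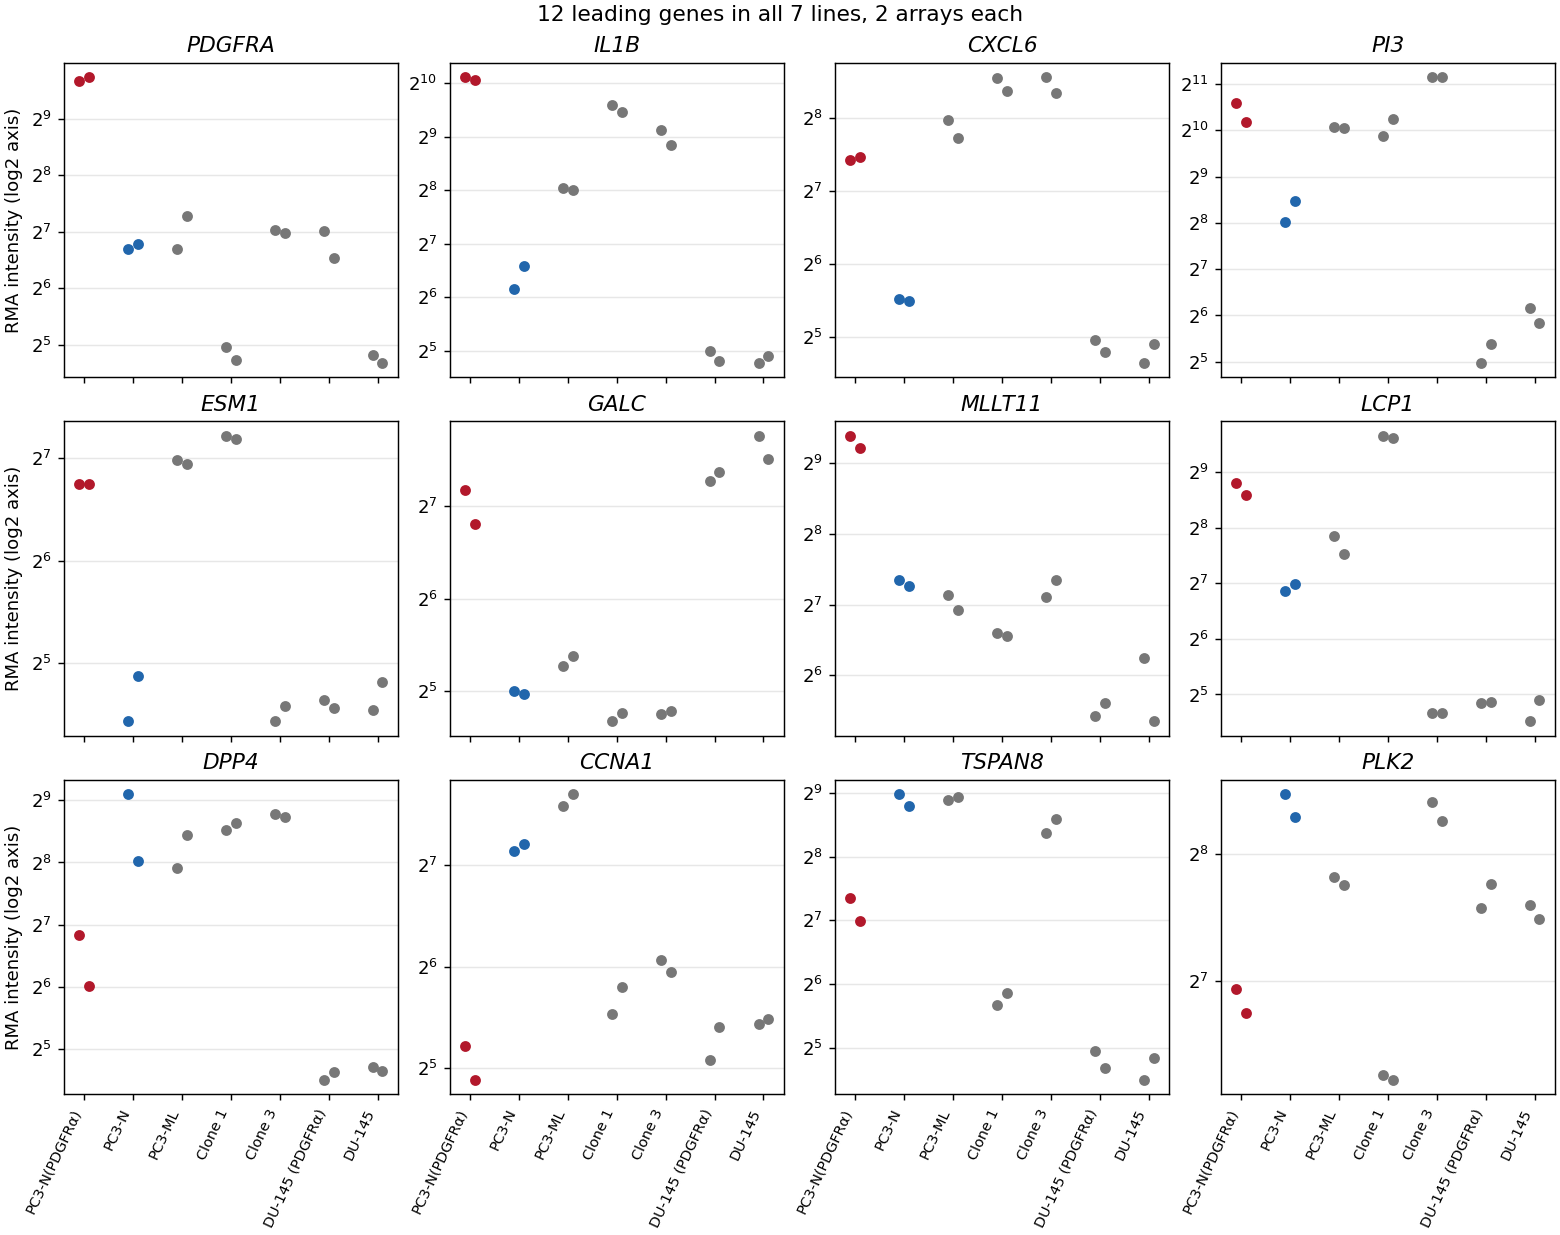
Each panel gives 1 gene, with RMA intensity on a log2 axis and the 2 arrays of each of the 7 lines as points, PC3-N(PDGFRα) in red, PC3-N in blue and the other lines in grey. PDGFRA, IL1B and MLLT11 are highest in PC3-N(PDGFRα), whereas CXCL6, ESM1, LCP1 and PI3 reach higher intensities in at least 1 line derived from or related to PC3-ML.

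The DU-145 background gives the same kind of contrast on separate arrays: DU-145 (PDGFRα), a DU-145 line that overexpresses the receptor and is labelled non-bone metastatic, against DU-145. There PDGFRA read 129.6 and 92.2, against 28.2 and 25.5 in DU-145. The DU-145 (PDGFRα) values lay around those of unmodified PC3-N (103 and 109), far below the 817 and 850.4 of PC3-N(PDGFRα). Receptor level and cell background therefore cannot be told apart in this comparison. The difference between the 2 changes, PC3-N background minus DU-145 background, was called for 98 genes (0.533% of all genes), 77 higher (0.419%) and 21 lower (0.114%). The count rests on single arrays: it was 26 and 44 without replicate 1 and replicate 2 of PC3-N(PDGFRα), 39 and 153 without those of PC3-N, 63 and 45 without those of DU-145 (PDGFRα), and 58 and 249 without those of DU-145. For PDGFRA it was 0.94 with a 95% interval of 0.35 to 1.54 and an adjusted p of 0.181.

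Of the 25 largest rises 16 had a called difference and of the 25 largest falls 7, all in the direction of the change in PC3-N. The change in PC3-N is itself a part of that difference, so large changes are the ones most likely to pass. For IL1B the difference was 3.64 (SE 0.19, adjusted p = 9.03e-05), for PI3 2.96 (SE 0.29, adjusted p = 0.00430), for GALC 2.33 (adjusted p = 0.000461) and for PLK2 −1.67 (adjusted p = 0.00122). In GALC the DU-145 arrays were far above the floor, at 155 and 165 in DU-145 (PDGFRα) and 217 and 182 in DU-145. In 10 of the 25 rises and 7 of the 25 falls both DU-145 line means lay under 30, where a change can hardly register. IL1B, which is not among these, lay close to that floor in both DU-145 lines.

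CXCL2 and CXCL8 lay far above the floor in the DU-145 lines. CXCL2 read 280.1 and 157 in DU-145 (PDGFRα) and 197 and 240.4 in DU-145, and CXCL8 215 and 154 in DU-145 (PDGFRα) and 164 and 231 in DU-145, with overlap in both. Their own change in DU-145 was −0.06 (95% interval −0.68 to 0.56) and −0.10 (−0.71 to 0.51), and the difference from PC3-N was 1.47 (adjusted p = 0.158) and 1.44 (0.160). NFKBIA, at 352 and 311 in DU-145 (PDGFRα) and 383 and 352 in DU-145, had a called difference of 1.15 (adjusted p = 0.0194). PLAU, not called in PC3-N itself, had one of 1.56 (adjusted p = 0.0401).

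**Figure D5:**
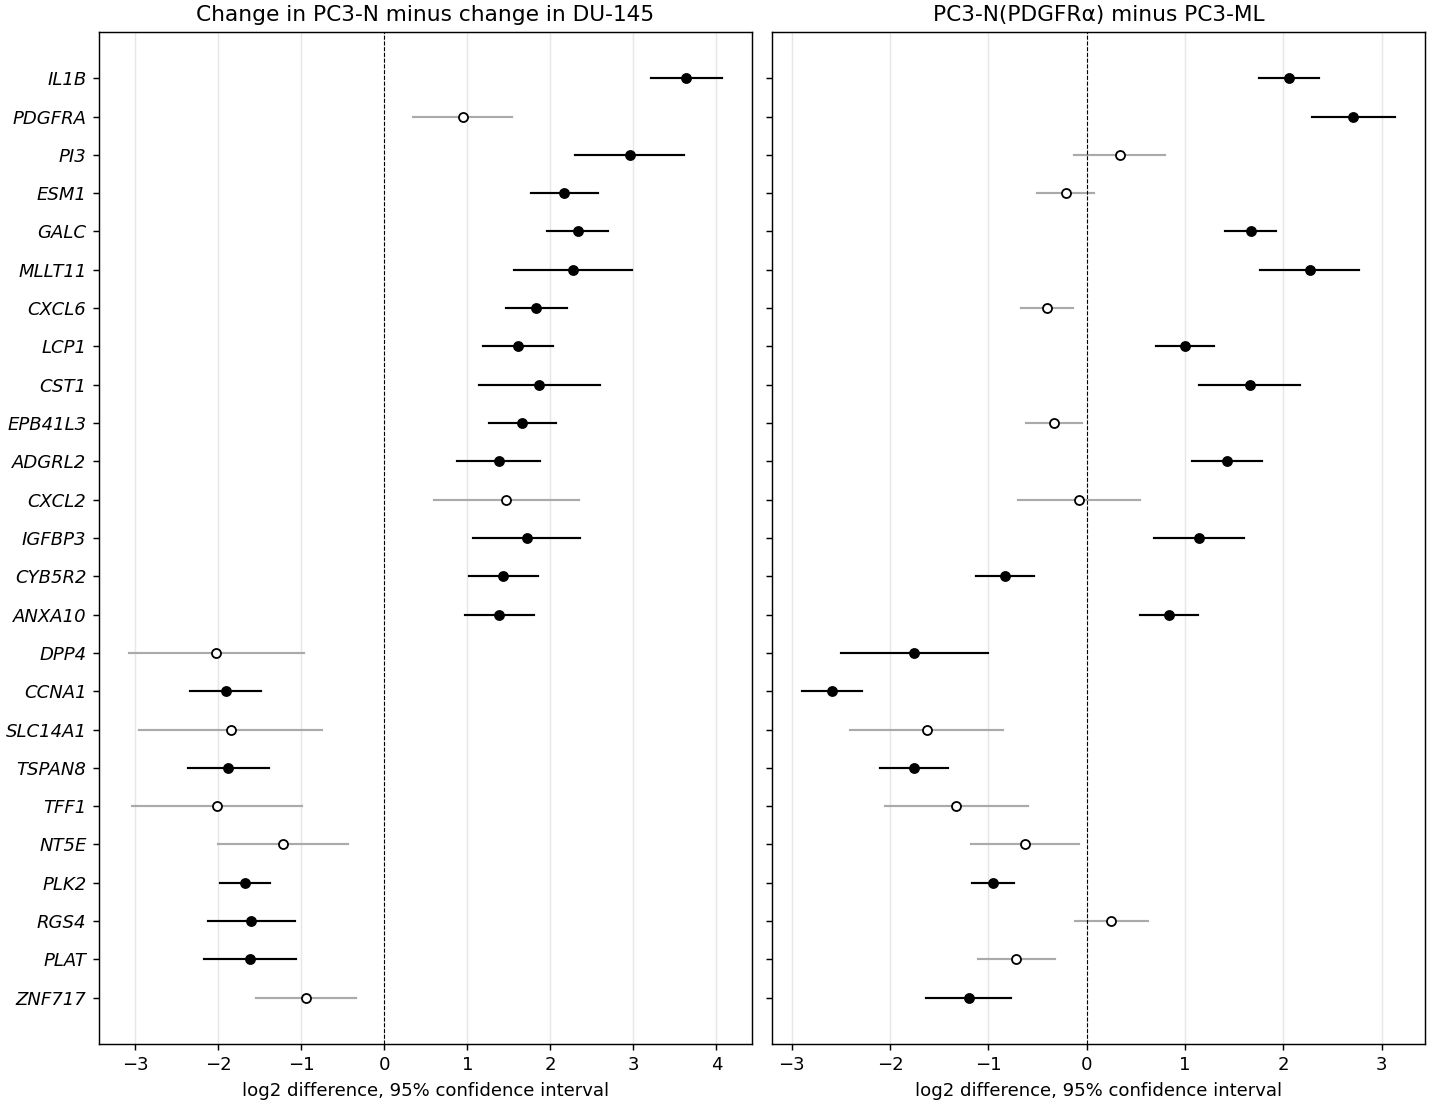
Points are log2 differences with 95% confidence intervals for the 15 largest rises and the 10 largest falls: the change in PC3-N minus the change in DU-145 on the left, and PC3-N(PDGFRα) minus PC3-ML on the right; filled points passed an adjusted p under 0.05. On the right IL1B, PDGFRA, GALC and MLLT11 lie well above 0, while the intervals of PI3, ESM1 and CXCL2 include it and CYB5R2 lies below it.

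PC3-N(PDGFRα) was also compared directly with PC3-ML, another PC3 line labelled bone metastatic, to see where lines of that label differ. This comparison shares the PC3-N(PDGFRα) arrays with the one above. It called 203 genes (1.1%), 143 higher (0.778%) and 60 lower (0.327%), or 122 higher and 84 lower with quantile normalization. The count was 46 and 91 without replicate 1 and replicate 2 of PC3-N(PDGFRα), and 62 and 127 without those of PC3-ML. Among the genes above, PC3-N(PDGFRα) exceeded PC3-ML in PDGFRA by 2.71 (SE 0.19, adjusted p = 0.000205), in MLLT11 by 2.27 (0.00166), in IL1B by 2.06 (SE 0.14, 0.000205), in GALC by 1.67 (0.000205), in CST1 by 1.66 (0.0103) and in LCP1 by 1.00 (0.00873). It lay below PC3-ML in CCNA1 (−2.59, SE 0.14, adjusted p = 4.24e-05), TIMP3 (−2.53, 2.79e-06), TSPAN8 (−1.75, 0.000903) and PLK2 (−0.95, 0.00173).

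For another group of rises no difference from PC3-ML was called. The difference was 0.34 in PI3 (95% interval −0.13 to 0.80), −0.21 in ESM1 (−0.50 to 0.07), −0.40 in CXCL6 (−0.66 to −0.14), −0.08 in CXCL2 (−0.70 to 0.54), −0.25 in CXCL8 (−0.86 to 0.36), −0.20 in CXCL1 (−0.58 to 0.18), −0.07 in NFKBIA (−0.33 to 0.19), 0.19 in INHBA (adjusted p = 0.439) and −0.02 in SLPI (−0.35 to 0.30). The interval of CXCL6 excludes 0, yet its adjusted p was 0.179. CYB5R2, a rise against PC3-N, was below PC3-ML (−0.83, adjusted p = 0.0185).

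Against PC3-N, whose arrays serve as the baseline for both lines, PC3-ML itself stood at 1.81 in PI3, 2.30 in ESM1, 2.33 in CXCL6, 1.07 in NFKBIA and 0.92 in INHBA, beside 2.14, 2.09, 1.93, 1.00 and 1.12 in PC3-N(PDGFRα). In GALC, MLLT11 and CST1 it stood at 0.34, −0.28 and 0.04 (adjusted p = 0.312, 0.810 and 0.996), beside 2.01, 1.99 and 1.70 in PC3-N(PDGFRα). As both sets of values share the PC3-N arrays, no likeness between them was tested.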

How the data were processed

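RNA from 2 passages of each of 7 prostate cancer lines was extracted with RNeasy, labelled with the NuGEN Encore Biotin module and hybridised to single-colour Affymetrix Human Gene ST arrays, per the labels' protocols. The authors made the deposited intensities with RMA, which corrects background, normalizes quantiles over arrays and summarises probes, per the submitters' processing notes; no version was named. The values as deposited are linear intensities, from 18.5 to 8654, with array medians of 29.9 to 31.6. Because RMA equalises the arrays' distributions, a shift of most genes at once cannot be seen. Arrays carry no read depth, so the number of arrays limits the precision.

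From the table of 28829 probe sets, the 19291 with 1 gene symbol in the platform annotation were used (1735 had several symbols and 7803 none; 19260 matched a RefSeq gene of GRCh38.p14, and 0 symbols were updated). The probe set with the highest mean stood for each of the 682 genes that had several, which left 18372 genes. The log2 intensities, with no pseudocount, were fitted with limma 3.58.1 in R 4.3.3 on all 14 arrays with a mean per line (7 residual degrees of freedom), and contrasts were tested two-sided with eBayes. Calls have a Benjamini-Hochberg adjusted p under 0.05 over all genes. The fit was tested on simulated data with known changes.

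Genes named are the 25 largest rises and 25 largest falls among called genes without overlap (small RNAs, Y-linked genes, pseudogenes and unnamed loci left out), called members of 38 lists (755 genes, 700 measured), and up to 4 uncalled members per list with the largest changes; IL1A, CXCL3, CXCL10, CXCL11, the PDGF ligands and the genes of the last section were added after their values were seen. The members, lists and rule were chosen with earlier results of these data known. Alternatives were the PC3 lines or the compared lines alone, quantile normalization, a filter on dim probe sets, trended or robust moderation, the mean of probe sets, 16 added before log2, the replicate number as a block and leaving out each array. Promoters are RefSeq sequences of GRCh38.p14.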

Additional observations from a re-analysis of the deposited data

Results flagged for a closer look

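For 29 called genes named above, the change in PC3-N differed from the change in DU-145 in the limma test of the difference (adjusted p under 0.05; 0.533% of all genes). Values are log2 differences, the change in PC3-N minus the change in DU-145. In 12 of the 29 both DU-145 line means lay under 30, where a change hardly registers on these arrays. These were 2.17 in ESM1, 1.87 in CST1, 1.83 in CXCL6, 1.66 in EPB41L3, 1.61 in LCP1, 1.39 in ANXA10, 1.38 in ADGRL2, 1.12 in INHBA, 0.91 in KIF5C, 0.78 in ITGB3, −1.88 in TSPAN8 and −0.74 in TIMP3.

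In the other 17 at least 1 DU-145 line mean was not under 30. IL1B was among these but lay close to the floor in both DU-145 lines. Among inflammatory and defence genes the difference was 3.64 in IL1B, 2.96 in PI3, 1.47 in SLPI and 1.15 in NFKBIA. Among enzymes, carriers and other proteins it was 2.33 in GALC, 2.27 in MLLT11, 1.71 in IGFBP3, 1.43 in CYB5R2, 1.01 in CD68, 0.99 in CST2 and 0.85 in DSP. Among genes that fell in PC3-N(PDGFRα) it was −1.91 in CCNA1, −1.67 in PLK2, −1.62 in PLAT, −1.60 in RGS4, −1.31 in NMT2 and −1.14 in UTRN. GALC read 155 and 165 in DU-145 (PDGFRα) and 217 and 182 in DU-145, IGFBP3 61.7 and 88.9 in DU-145 (PDGFRα) and 111 and 75.05 in DU-145, and PLAT 43.7 and 34.6 in DU-145 (PDGFRα) and 35.6 and 33.7 in DU-145. Each line has 2 arrays, so no array was tested for standing apart from its group.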

How the results depend on the processing

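The count of 405 calls in PC3-N(PDGFRα) against PC3-N, the 98 genes whose change differed from that in DU-145 and the 203 that differed from PC3-ML became 6, 6 and 14 when only the compared lines were fitted, where fewer arrays estimate the spread. The 6 of the first comparison, CXCL2, CXCL6, IL1B, MLLT11, NUDT11 and PDGFRA, were all among the 405. Leaving out 1 array at a time gave 71 to 404, 26 to 249 and 46 to 127 genes. The other alternatives gave 365 to 462, 72 to 142 and 169 to 244, with the fit of the PC3 lines alone not applicable to the DU-145 comparison. These were partly other genes. Of the 405, from 305 with the dim filter to 393 with the mean of probe sets were called again. No named gene reversed its direction. Of 131 called genes followed singly 42 to 101 kept their call on leaving out 1 array of the compared lines, 6 with the compared lines alone and 110 to 131 under the others, or 113 of 118 tested with the dim filter.

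Over the 21 pairs of lines, deviations of arrays with the same replicate number correlated at r from −0.199 to 0.245 (median 0.036, 5 pairs over 0.1). The highest was PC3-N with PC3-N(PDGFRα). As most pairs fell short of 0.1 and no label ties the numbers to a shared day, they were not taken as pairs. With the replicate block the counts were 377, 72 and 181, and 14 of the 131 genes lost their call, among them CXCL8, MMP13, CLDN1, TGFBR3 and SLC1A3. Signals near the array floor limit what can be seen: 42 genes called higher had a PC3-N mean under 30 and 11 called lower a PC3-N(PDGFRα) mean under 30.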

Other observations

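Genes outside the lists were looked at after their values were seen, and no test of a group was made. Of 36 proteasome subunit genes 5 were called higher in PC3-N(PDGFRα) (13.9%, against 1.52% of all genes) and 0 lower, with a median change of 0.21. All 5 (PSMA1, PSMA4, PSMA5, PSMB9 and PSMC2) were lost without PC3-N replicate 1 and also without PC3-N(PDGFRα) replicate 1, and PSMC2 with quantile normalization too. The largest change was that of PSMB9, an immunoproteasome subunit, which read 61.5 and 60.9 in PC3-N(PDGFRα), against 29.3 and 33.6 in PC3-N (change of 0.96 in log2, SE 0.15, adjusted p = 0.0143). ERAP1, which trims peptides for antigen presentation, read 99.9 and 90.5, against 56.2 and 62.3 in PC3-N (change of 0.68 in log2, SE 0.09, adjusted p = 0.00665), and NMI, an interferon-induced partner of MYC, 109 and 86.8, against 48.4 and 53.5 in PC3-N (change of 0.94 in log2, SE 0.12, adjusted p = 0.00548). The lines were apart in all 3 genes, but PSMB9 was lost without PC3-N replicate 1 or either PC3-N(PDGFRα) array (adjusted p up to 0.105) and ERAP1 without PC3-N(PDGFRα) replicate 1 (0.0628), while NMI held without each. Of 6 prefoldin subunits, parts of a chaperone for actin and tubulin, PFDN1, PFDN4 and PFDN5 were called higher (50%). Each of the 3 was lost with quantile normalization and without PC3-N replicate 1 or either PC3-N(PDGFRα) array, and PFDN5 also without PC3-N replicate 2.

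EFNB2, which encodes ephrin-B2, fell to 44.0 and 40.3 in PC3-N(PDGFRα), against 72.2 and 73.5 in PC3-N (change of −0.79 in log2, SE 0.11, adjusted p = 0.00710), and was lost without PC3-N(PDGFRα) replicate 2 (0.0539). KITLG, which encodes stem cell factor, fell to 62.8 and 62.4, against 117 and 100.1 in PC3-N (change of −0.79 in log2, SE 0.12, adjusted p = 0.0116), and RUNX1, a transcription factor of blood and epithelium, to 76.0 and 75.3, against 101 and 110.3 in PC3-N (change of −0.48 in log2, SE 0.06, adjusted p = 0.00678). KITLG was lost without PC3-N replicate 1 or either PC3-N(PDGFRα) array (up to 0.0851) and RUNX1 without PC3-N(PDGFRα) replicate 1 (0.0563). STEAP1, a membrane protein of prostate epithelium, rose to 216 and 166, against 109 and 109 in PC3-N (change of 0.80 in log2, SE 0.11, adjusted p = 0.00682), and held without each array.

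The shares called on single chromosomes were not tested. On chromosome 12, 40 of 981 genes were called higher (4.08%, against 1.52% of all genes), and on chromosome 18, 11 of 264 (4.17%). Chromosomes 4 and 5 followed with 24 of 709 (3.39%) and 25 of 770 (3.25%). Counts without single arrays were made for chromosomes 12 and 21 only. In each of these fits the share called higher on chromosome 12 exceeded that of all genes, by least without PC3-N(PDGFRα) replicate 1. The share called lower on chromosome 21 exceeded that of all genes in each fit except the one without PC3-N(PDGFRα) replicate 1. Without PC3-N(PDGFRα) replicate 1 the count on chromosome 12 was 3 (0.306%, against 0.267% of all genes), and without PC3-N replicate 1 it was 8 (0.815%, against 0.435%). On chromosome 21, 0 of 235 were called higher and 8 lower (3.4%, against 0.68%), and 0 were lower without PC3-N(PDGFRα) replicate 1. Over all tested genes, 22 neighbouring pairs were called the same way, all of them higher, with no share over all pairs made. Among them were IL1B with IL37, CST1 with CST2, CXCL8 with CXCL6, and GALC with GPR65. GPR65, a proton-sensing receptor, rose by 0.52 (limma adjusted p = 0.00169).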
